A study of Mus musculus with 6 samples.

Results

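The Notch ligands *Dll1*, *Dll4*, *Jag1* and *Jag2*, the receptors *Notch1* to *Notch4* and the target genes *Hes1* and *Hey1* were examined in cardiac fibroblasts after myocardial infarction (MI), by taking the rows with these 10 gene symbols from the 34745 genes of the deposited table. The 3 libraries labelled KO came from KDM5B-knockout mice, made with CRISPR/Cas9 by removing a stretch of *Kdm5b* that holds the JmjC domain, and the 3 labelled WT from littermate wild-type mice. KDM5B is a histone demethylase that removes methyl groups from lysine 4 of histone H3. All mice were 8 to 10 weeks old at MI surgery, and the design text describes them as male. All had undergone MI by permanent tying of the left anterior descending branch, so uninjured hearts were not part of the comparison. On Day 7 after MI the cells were taken from left ventricular myocardium, and no sort for a cell type is named. The labels do not say whether a library came from 1 animal or several, and the p-values measure the spread between these libraries.

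Notch signaling passes between touching cells. A ligand of the Delta-like or Jagged family on the surface of a cell binds a Notch receptor on its neighbor, proteases then release the intracellular part of the receptor, and this part joins the DNA-binding protein RBPJ in the nucleus and switches on target genes such as *Hes1*, *Hey1* and *Nrarp*. In blood vessels, Notch signaling restrains sprouting and takes part in arterial identity, and *Notch3* is known for its role in mural cells, the pericytes and smooth muscle cells of the vessel wall.

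All 10 genes passed the filter on low counts. Of these, 5 were higher and 2 lower in the KO-labelled libraries than in the WT-labelled ones at the threshold used here (quasi-likelihood test in edgeR, Benjamini-Hochberg adjusted p below 0.05 over the 14084 genes tested). Across all genes tested, 17.7% were higher and 12.5% lower by the same rule. The 3 libraries of each label did not overlap in 8 of the 10 genes, where 47.0% of all genes tested showed no overlap in either direction. The median log2 fold change of the 10 genes was 0.47, beside -0.02 for all genes tested. The 10 genes were chosen with earlier results of these data known, so these counts and this median are a description and no test of the set. The ligands *Dll1*, *Dll4* and *Jag1* and the receptors *Notch1* and *Notch4* rose, *Notch2* and *Notch3* fell, and *Jag2*, *Hes1* and *Hey1* did not pass the threshold. The 2 falls depended on how the libraries were scaled. When each library was scaled so that macrophage and cardiomyocyte markers had a median ratio of 1 (marker scaling), which raised the median of all genes by 0.37 on the log2 scale, the log2 fold change was 0.13 for *Notch2* and -0.05 for *Notch3*, and neither passed the threshold (adjusted p = 0.0604 and 0.720 from edgeR). That scaling called 8211 of all genes higher (58.3%) and 67 lower (0.476%), against 2488 and 1760 with TMM, the trimmed mean of M values used otherwise.

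The libraries held 12025403 to 15329427 counts on genes. *Kdm5b*, which the knockout targets, had 98.1, 107 and 105 CPM (counts scaled to library size, here with TMM) in the KO-labelled libraries and 108, 129 and 123 in the WT-labelled ones (log2 fold change -0.22, adjusted p = 0.0574 from edgeR). By Q-PCR and immunoblot the authors found KDM5B mRNA and protein nearly absent from knockout cardiac fibroblasts, a loss that these gene counts do not show. A gene count does not tell the deleted stretch from the rest of the gene, and the reason for the difference was not tested. The groups are called by their labels here. Fibroblast markers were the highest of the marker lists in every library, with a summed level of 3109 to 3587 FPKM (fragments per kilobase of gene length, also scaled to the library total) in the KO-labelled libraries and 4252 to 4524 FPKM in the WT-labelled ones. With TMM all 10 of 10 fibroblast markers were lower (median log2 fold change -0.42), and with marker scaling none (0) passed the threshold in either direction (median -0.05). Markers of other cells were present as well. The 15 endothelial markers summed to 313 to 424 FPKM in the KO-labelled libraries and to 84.6 to 85.3 FPKM in the WT-labelled ones, with 13 of 15 higher, 0 lower and none at 0. *Pecam1*, *Cdh5* and *Kdr* had log2 fold changes of 3.98, 2.31 and 4.23, while *Cldn5* and *Eng*, named after their values were seen, had 0.00 and -0.02. The 13 higher ones ran from 0.53 for *Tek* to 4.94 for *Nos3*, also named after their values were seen. The summed level of the macrophage list was 825 to 853 against 1015 to 1097 FPKM, with 1 of 10 markers higher and 6 lower, and that of the cardiomyocyte list was 158 to 175 against 206 to 220 FPKM, with 0 of 9 tested markers higher and 5 lower. The lower calls of these lists and of the mural list were also absent with marker scaling, which is built on the macrophage and cardiomyocyte markers. Of 9 mural markers 2 were higher and 3 lower, *Higd1b* was at 0 in every library, and the sum was 129 to 133 against 131 to 133 FPKM. Of 9 lymphocyte markers 5 were at 0 in every library. The part of these cells in the changes of the Notch genes was not tested, and in such bulk samples a change in the number of cells of a type and a change in RNA per cell cannot be told apart.

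**Figure D1:**
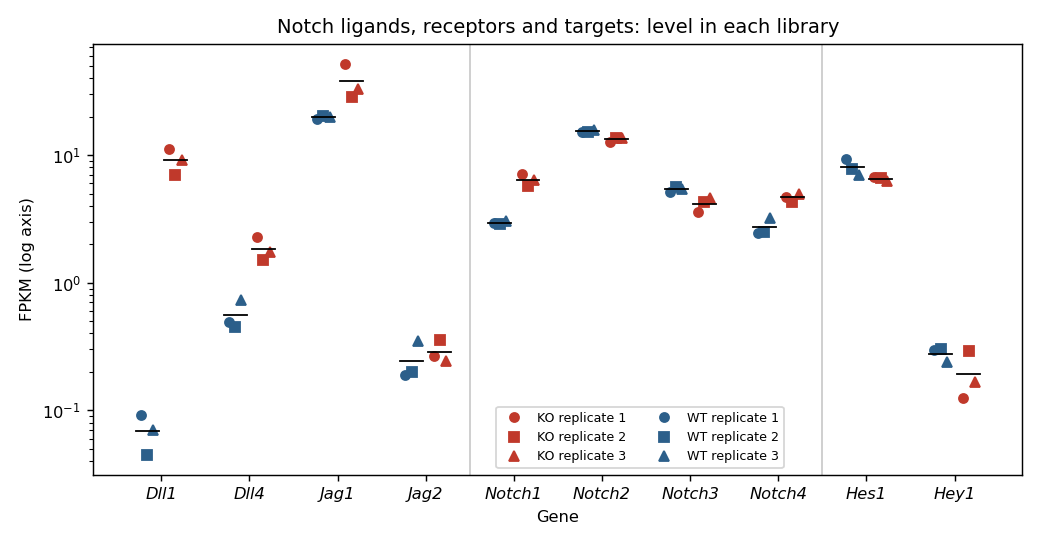
Level of each gene in each library, in FPKM on a log axis, with WT libraries in blue, KO libraries in red, a marker shape per replicate number and the mean of each label as a black line. *Dll1* lies at 0.0445 to 0.0917 FPKM in the WT libraries and at 6.95 to 11.1 FPKM in the KO libraries, the widest gap of the 10 genes, while the labels overlap for *Jag2* and *Hey1*.

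The sequences ahead of the transcription start sites of the 3 ligand genes that rose are shown because these genes were all higher, by different amounts, and because they are the part of each gene next to which the histone mark removed by KDM5B is typically found. They are the 250 bases before each start in the RefSeq annotation of GRCm38.p6, the genome that mm10 also stands for, written in the direction of transcription. Capitals mark CG dinucleotides, the target of DNA methylation. RefSeq gave *Dll1* 2 start sites, and their upstream windows were chr17:15375824-15376073 and chr17:15376933-15377182 on the minus strand. The window was chr2:119325534-119325783 on the plus strand for *Dll4* and chr2:137116521-137116770 on the minus strand for *Jag1*.
*Dll1*, downstream start: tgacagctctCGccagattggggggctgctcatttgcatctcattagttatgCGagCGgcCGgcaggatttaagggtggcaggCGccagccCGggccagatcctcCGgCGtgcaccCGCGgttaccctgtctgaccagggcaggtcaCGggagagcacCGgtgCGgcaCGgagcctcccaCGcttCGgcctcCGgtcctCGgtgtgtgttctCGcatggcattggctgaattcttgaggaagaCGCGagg
*Dll1*, upstream start: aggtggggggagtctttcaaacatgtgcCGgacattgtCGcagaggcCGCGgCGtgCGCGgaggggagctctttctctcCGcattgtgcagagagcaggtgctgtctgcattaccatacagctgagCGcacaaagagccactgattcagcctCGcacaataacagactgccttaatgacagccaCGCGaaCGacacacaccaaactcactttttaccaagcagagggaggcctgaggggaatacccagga
*Dll4*: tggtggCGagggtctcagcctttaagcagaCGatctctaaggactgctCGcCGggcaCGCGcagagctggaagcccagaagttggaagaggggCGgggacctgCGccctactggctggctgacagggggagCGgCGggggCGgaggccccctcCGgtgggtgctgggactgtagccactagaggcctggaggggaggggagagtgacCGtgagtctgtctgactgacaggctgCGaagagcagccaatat
*Jag1*: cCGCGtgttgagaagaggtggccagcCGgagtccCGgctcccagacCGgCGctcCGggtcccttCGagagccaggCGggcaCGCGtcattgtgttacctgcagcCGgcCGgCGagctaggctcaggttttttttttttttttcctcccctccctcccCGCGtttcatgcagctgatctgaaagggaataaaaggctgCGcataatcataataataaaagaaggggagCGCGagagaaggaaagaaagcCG

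With the 50 bases after the start included, these windows of 300 bases held 24 and 15 CG dinucleotides at the downstream and upstream start of *Dll1*, 17 at *Dll4* and 22 at *Jag1*, against a median of 7 and quartiles of 3 and 20 over the 32851 windows of the same table. The upstream start of *Dll1* and *Dll4* thus lay between the quartiles, and the other 2 windows above them. Windows were found for 8 of the 10 genes, and *Hes1* and *Hey1* were not matched. Over the 9 windows of the 8 genes the number ran from 5 at *Notch4* to 63 at *Jag2*, so the receptor gene with the fewest rose and the ligand gene with the most did not pass the threshold. The core sequence that RBPJ binds, TGGGAA, searched on both strands, was in 0 of the 9 windows and in 25.6% of all windows. This says only that these letters are not in these windows. The RNA counts do not say which start site of *Dll1* was used.

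Among the ligands, *Dll1* showed the widest difference. *Dll1* (ENSMUSG00000014773, chromosome 17 from 15367354 to 15376872 in mm10) encodes Delta-like 1, an activating ligand that is known for its part in arterial cells and in the formation of somites. Its counts were 808, 557 and 851 in the KO-labelled libraries and 8, 4 and 6 in the WT-labelled ones. Each of the WT libraries was therefore close to, but above, the 3 counts that a count of 0 would allow. In FPKM the mean was 9.08 ± 2.09 (SD, n = 3) against 0.0686 ± 0.0236. The fold was 127, with a 95% interval from 82.3 to 196 (log2 fold change 6.99, adjusted p = 3.3e-06 from edgeR). On such low WT counts the size depends on the scale, and the log2 fold change was 3.22 in limma on log2(FPKM + 1), 5.75 on log2(FPKM + 0.1) and up to 7.36 with marker scaling, past the threshold in all 15 alternatives. A long noncoding gene, *A930024N18Rik*, covers 20.5% of the exon bases of *Dll1* on the other strand in GENCODE M21, and it had 0 to 6 counts per library.

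*Dll4* (chromosome 2 from 119325784 to 119335962) encodes Delta-like 4, the ligand of endothelial tip cells that limits how many of their neighbors sprout. Its level was 2.29, 1.50 and 1.75 FPKM in the KO-labelled libraries and 0.495, 0.446 and 0.735 FPKM in the WT-labelled ones. The lowest KO library was thus above the highest WT library. It rose 3.22-fold, with a 95% interval from 2.18 to 4.73 (log2 fold change 1.69, standard error 0.24, adjusted p = 0.00148 from edgeR), and by 0.86 in limma on log2(FPKM + 1), a scale that shrinks low values.

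*Jag1* (chromosome 2 from 137081456 to 137116644) encodes Jagged 1, the ligand that in vessels is known for signaling to mural cells and for competing with Delta-like 4. It was the most abundant of the 10 genes under both labels, with 52.1, 28.4 and 32.9 FPKM in the KO-labelled libraries and 19.2, 20.2 and 20.0 FPKM in the WT-labelled ones. The labels did not overlap, but KO replicate 1 stood well above the other 2. It rose 1.86-fold (log2 fold change 0.90, standard error 0.19, adjusted p = 0.00920 from edgeR), and by 0.61 on the log2 scale without KO replicate 1 (adjusted p = 9.6e-04 from edgeR). KO replicate 1 was also the highest of its label for *Dll1*, *Dll4*, *Notch1*, *Hes1*, *Pecam1*, *Cdh5* and *Kdr*.

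*Jag2* encodes Jagged 2, a close relative of Jagged 1. It had 13, 19 and 15 counts in the KO-labelled libraries and 11, 12 and 20 in the WT-labelled ones, and the labels overlapped. Its log2 fold change of 0.20 had a 95% interval from -0.60 to 0.99 (adjusted p = 0.702 from edgeR), so at this depth neither a fall to 0.661-fold nor a rise to 1.99-fold is outside the interval.

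The 4 ligands together came to 65.8, 37.2 and 44.1 FPKM in the KO-labelled libraries and to 20.0, 20.9 and 21.2 FPKM in the WT-labelled ones. Their make-up also differed. *Dll1* was 16.9%, 18.7% and 20.8% of this sum in the KO-labelled libraries and 0.458%, 0.213% and 0.329% in the WT-labelled ones. The share of *Jag1* was 76.7% ± 2.30 (SD, n = 3) against 95.8% ± 1.10, although *Jag1* itself had risen. With the exon lengths of GENCODE M21 in place of the lengths behind the deposited FPKM, which differ from them by a factor of 0.582 to 1.51 among the 10 genes, the mean share of *Dll1* was 22.3% against 0.412%.

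The ratio of 2 genes within a library does not depend on the scaling between libraries. The FPKM of *Dll1* were 4.85, 4.63 and 5.25 times those of *Dll4* in the KO-labelled libraries and 0.185, 0.0997 and 0.0949 times in the WT-labelled ones. The order of the 2 Delta-like ligands was thus opposite under the 2 labels, with a difference of 5.35 in the log2 ratio. With 0.5 added to CPM in place of FPKM, which weighs on the 4 to 8 counts of *Dll1* in the WT-labelled libraries, this difference was 4.38. The ratio of the Delta-like to the Jagged ligands differed by 3.25 on the log2 scale, with no overlap, while that of *Jag1* to *Jag2* overlapped between the labels (difference 0.61, p = 0.3 in an exact two-sided permutation test). The first 2 of these ratios gave p = 0.1 in an exact two-sided permutation test over the libraries, the smallest p that 3 libraries against 3 can reach, and over the family of 18 ratios compared no adjusted p can be lower.

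**Figure D2:**
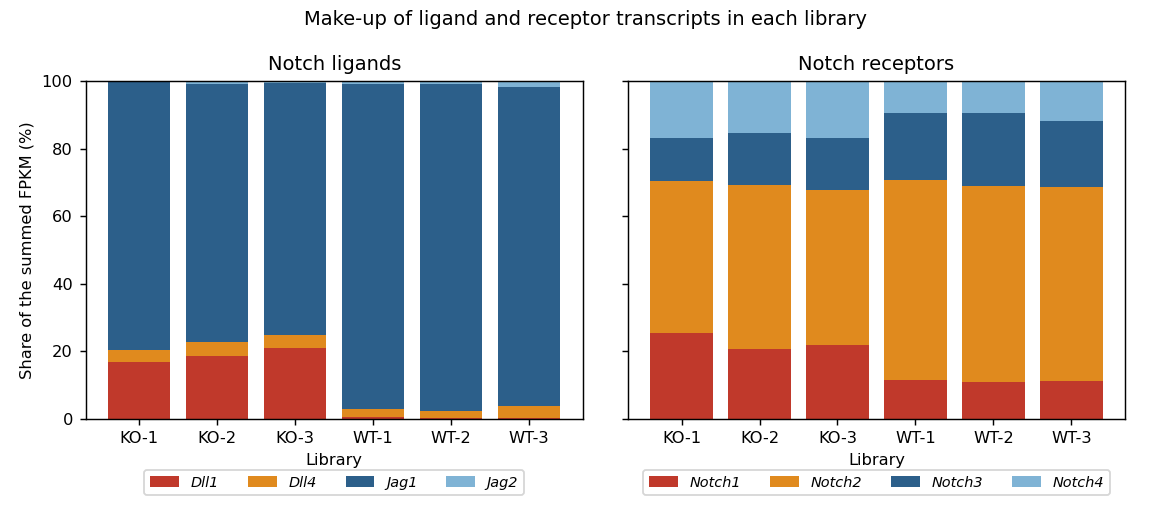
Share of each gene in the summed FPKM of the 4 ligands (left) and of the 4 receptors (right), in percent, as a stacked bar for each library. *Dll1* fills 16.9% to 20.8% of the ligand bar in the KO libraries and under 1% in the WT libraries, and *Notch1* and *Notch4* fill more of the receptor bar in each KO library than in any WT library.

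Among the receptors, *Notch1* (chromosome 2 from 26457903 to 26516663) is broadly expressed and is the main Notch receptor of endothelial cells in sprouting vessels. It had 7.07, 5.74 and 6.43 FPKM in the KO-labelled libraries and 2.95, 2.87 and 3.03 FPKM in the WT-labelled ones. Every KO library was above every WT library, and the fold was 2.12 with a 95% interval from 1.88 to 2.40 (log2 fold change 1.09, standard error 0.08, adjusted p = 4.3e-05 from edgeR). *Notch4* (chromosome 17 from 34564268 to 34588503), whose expression is largely endothelial, had 4.70, 4.32 and 4.98 FPKM against 2.45, 2.48 and 3.21 FPKM. It rose 1.68-fold, with an interval from 1.40 to 2.01 (adjusted p = 0.00185 from edgeR).

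*Notch2* and *Notch3* went the other way with TMM scaling. *Notch2* (chromosome 3 from 98013527 to 98150361), a receptor of many stromal and immune cells, had 12.6, 13.7 and 13.7 FPKM in the KO-labelled libraries and 15.3, 15.2 and 15.7 FPKM in the WT-labelled ones. With TMM its level fell by 0.24 on the log2 scale (standard error 0.05, adjusted p = 0.00921 from edgeR), against a value of 0.13 with marker scaling. *Notch3* (chromosome 17 from 32120820 to 32166880), the mural cell receptor, had 3.57, 4.27 and 4.57 FPKM against 5.16, 5.67 and 5.39 FPKM. The difference was -0.42 in log2 (standard error 0.10, adjusted p = 0.0145 from edgeR). For the mural marker *Pdgfrb* it was -0.42 and for the fibroblast marker *Col1a1* -0.44, but the mural markers *Mcam* and *Abcc9*, named after their values were seen, had 1.38 and 0.84, and the medians of the macrophage and cardiomyocyte lists were -0.39 and -0.35. The call for *Notch3* was lost without WT replicate 2 (-0.38, adjusted p = 0.0515 from edgeR) and with marker scaling (-0.05), and the adjusted p lay between 0.00419 and 0.720 across 15 alternatives.

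The sum of the 4 receptors was 28.0, 28.0 and 29.7 FPKM in the KO-labelled libraries and 25.9, 26.2 and 27.4 FPKM in the WT-labelled ones. Within this sum, *Notch1* made up 22.5% ± 2.48 (SD, n = 3) in the KO-labelled libraries and 11.1% ± 0.235 in the WT-labelled ones. *Notch4* made up 16.3% ± 0.795 against 10.2% ± 1.31, *Notch2* 46.7% ± 1.88 against 58.2% ± 0.874, and *Notch3* 14.5% ± 1.50 against 20.4% ± 1.07. None of these 4 shares overlapped between the labels (exact two-sided permutation test, p = 0.1 for each, the smallest possible). *Notch1* was 0.559, 0.420 and 0.470 of the level of *Notch2* in the KO-labelled libraries and 0.193, 0.189 and 0.192 of it in the WT-labelled ones, a pair chosen after the values were seen. In the order of mean FPKM, *Notch3* stood above *Notch1* and *Notch4* in the WT-labelled libraries and below both in the KO-labelled ones. In the deposited FPKM *Notch1* and *Notch4* overlapped with each other in the WT-labelled libraries, as did *Notch4* with *Notch3* and *Hes1* with *Notch1* in the KO-labelled ones. Such closeness between genes, like the receptor shares, depends on the gene lengths used. With the exon lengths of GENCODE M21 the WT means were 4.11 for *Notch4* and 3.28 for *Notch1*. The KO means were then 7.06 for *Notch4* against 4.11 for *Notch3*, and 9.18 for *Hes1* against 7.13 for *Notch1*.

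**Figure D3:**
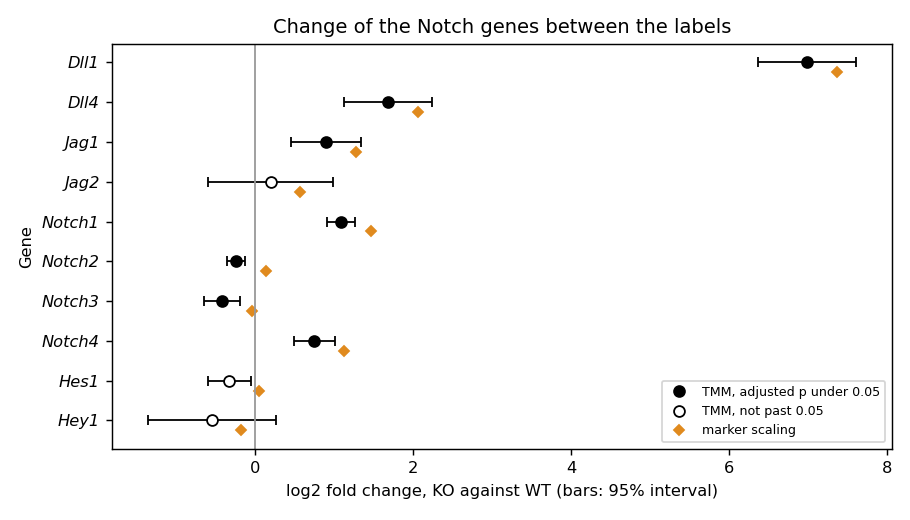
Log2 fold change of each gene, KO against WT, with its 95% interval from the edgeR fit, filled circles where the adjusted p was under 0.05 and open circles where it was not, and orange diamonds for the same value with marker scaling. With marker scaling *Notch2* moves from -0.24 to 0.13 and *Notch3* from -0.42 to -0.05, while *Dll1*, *Dll4*, *Jag1*, *Notch1* and *Notch4* stay above 0.

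Neither of the target genes *Hes1* and *Hey1* passed the threshold. *Hes1* (chromosome 16 from 30064384 to 30067796) encodes a repressor that is a classic readout of Notch signaling. Its level was 6.69, 6.64 and 6.30 FPKM in the KO-labelled libraries and 9.35, 7.75 and 6.92 FPKM in the WT-labelled ones. All KO libraries were below all WT libraries, but the log2 fold change of -0.33 (95% interval -0.60 to -0.06) did not pass after adjustment (adjusted p = 0.0696 from edgeR). It passed without WT replicate 3 (-0.42, adjusted p = 0.0340 from edgeR) and with upper-quartile scaling, while marker scaling gave 0.05. *Hey1* (chromosome 3 from 8663359 to 8667256), a related repressor that is prominent in arterial endothelium, had 7, 18 and 12 counts in the KO-labelled libraries and 20, 21 and 16 in the WT-labelled ones. The labels overlapped, and its log2 fold change was -0.55 (95% interval -1.36 to 0.26, adjusted p = 0.275 from edgeR). With so few counts a fall to 0.389-fold and a rise to 1.20-fold both lie inside the interval. The ratio of *Hey1* to *Hes1* overlapped between the labels as well (difference in log2 ratio -0.33, exact two-sided permutation test, p = 0.5).

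The wider pathway was read from a list of 65 genes by role, the 10 genes included. Of the 55 others, 50 could be tested, and 8 were higher, 7 lower and 35 did not pass the threshold, with a median log2 fold change of -0.07. These counts are near the shares over all genes. With marker scaling 31 of the 50 were higher and 0 lower, near the 58.3% and 0.476% of all genes under that scaling, and each lower call among them, that of *Mfng* included, was lost with that scaling. Among the other target genes, *Nrarp*, a small ankyrin-repeat protein that is induced by Notch and dampens it, rose. It had 3.22, 3.36 and 3.21 FPKM in the KO-labelled libraries and 0.617, 0.182 and 0.408 FPKM in the WT-labelled ones, a difference of 2.98 in log2 (standard error 0.30, adjusted p = 2.6e-04 from edgeR). Its single exon lies under *Gm38287*, an antisense gene that covers 79.4% of it and had a count of 0 in every library. *Hey2* and *Heyl*, the other target genes with enough counts, had log2 fold changes of -0.32 and -0.33 and did not pass the threshold (adjusted p = 0.211 and 0.129 from edgeR). *Hes5* was at a count of 0 throughout, and *Hes7* had too few counts to be tested. In all 1 of 5 tested target genes was higher, a share near the 17.7% of all genes, and 4 did not pass the threshold.

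*Neurl1b* and *Neurl3* belong to the neuralized family of ubiquitin ligases, some of which drive ligand uptake, and had log2 fold changes of 2.77 and 0.55 (adjusted p = 0.00510 and 0.00659 from edgeR). *Neurl1b* also varied widely within each label, with 72, 172 and 243 counts against 6, 40 and 27. Of the 10 genes of the proteases that cut Notch, 1 was higher and 3 lower, small numbers beside the 17.7% and 12.5% of all genes, and the one that was higher was *Psenen*, a subunit of γ-secretase (0.53, adjusted p = 0.0470 from edgeR). *Mfng*, a glycosyltransferase that changes which ligands a receptor prefers, was lower (-0.77, adjusted p = 0.0440 from edgeR). The calls of *Psenen* and *Mfng* were lost in 10 and 11 of 15 alternatives. *Dtx1*, a deltex ubiquitin ligase that is itself a known Notch target, rose by 1.56 on the log2 scale from 3 to 6 counts in the WT-labelled libraries to 12 to 15 in the KO-labelled ones (adjusted p = 0.0159 from edgeR), and its call was lost in 5 of 14 alternatives. In the nucleus, *Maml3*, a coactivator of the Notch complex, rose by 1.16 (adjusted p = 0.00105 from edgeR) and *Tle4*, a Groucho corepressor, by 0.87 (adjusted p = 0.00587 from edgeR). *Rbpj* itself had a log2 fold change of -0.11 with a 95% interval from -0.22 to 0.00 and was not past the threshold.

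**Figure D4:**
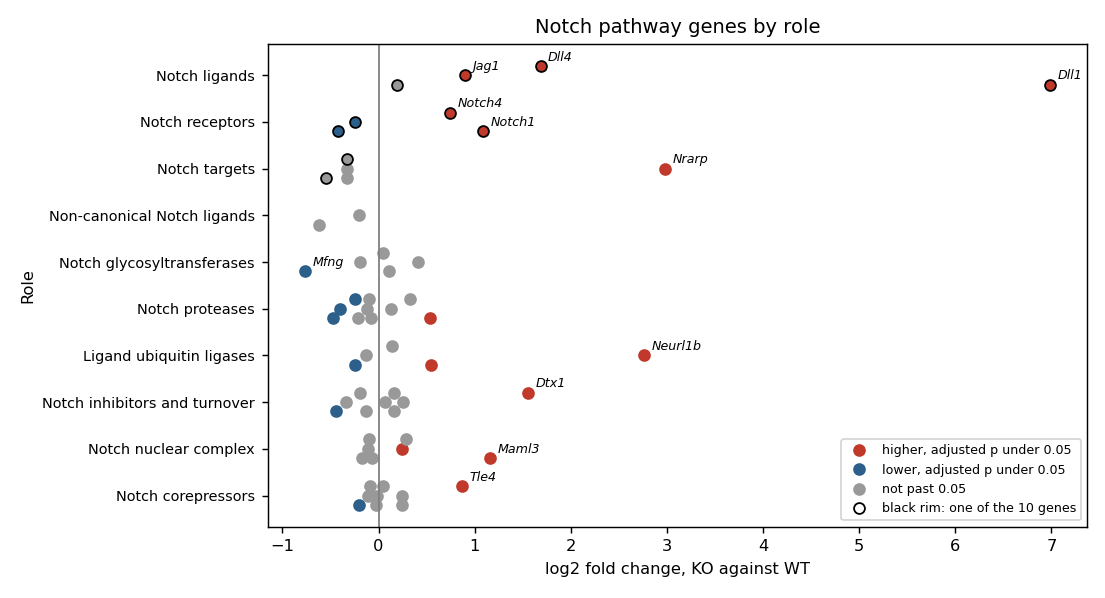
Log2 fold change, KO against WT, of the 60 pathway genes that could be tested, 1 row per role, colored by call and with a black rim for the 10 genes. *Dll1* (6.99), *Nrarp* (2.98) and *Neurl1b* (2.77) lie farthest to the right, and most genes of the proteases, inhibitors, nuclear complex and corepressors lie near 0.

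Since endothelial markers were higher in the KO-labelled libraries, the 10 genes were also set against the summed FPKM of these 15 markers within each library. This sum was itself 2.10 higher on the log2 scale in the KO-labelled libraries (2.75 without *Eng*), so a gene with no change in FPKM has a difference of -2.10 here. The differences are given as a description, without the permutation p computed for each, since that p sets a ratio against 0 and not against -2.10. *Dll1* was the one gene of the 10 whose level per endothelial marker was higher in every KO library than in any WT library, by 4.99 on the log2 scale (3.86 with CPM + 0.5 in place of FPKM, and 4.34 without *Eng*). Its ratio was 0.0262, 0.0222 and 0.0254 in the KO-labelled libraries and 0.00108, 5.2e-04 and 8.2e-04 in the WT-labelled ones. *Eng*, at 35.3 to 37.5 FPKM in the KO-labelled libraries and 35.7 to 36.6 FPKM in the others, made up 8.32% to 11.8% of this sum under KO and 41.8% to 43.3% under WT, so the sum was also taken over the other 14 markers, a choice made after the data were seen. *Dll4* had ratios of 0.00540, 0.00479 and 0.00484 against 0.00584, 0.00523 and 0.00869, which overlapped (log2 difference -0.36). Without *Eng* the ratios of *Dll4* were 0.00589, 0.00543 and 0.00541 against 0.0102, 0.00898 and 0.0153, lower in every KO library (difference -1.01). A gene with no change in FPKM has a difference of -2.75 in that setting, so *Dll4* stood above such a gene. With CPM + 0.5 the ratios of *Dll4* were lower in every KO library as well. The other 8 genes had lower ratios, as any gene must that rose less than the sum. They ran from -0.98 for *Notch1*, -1.21 for *Jag1*, -1.31 for *Notch4* and -1.83 for *Jag2*, above the value of an unchanged gene, to -2.31 for *Notch2*, -2.38 for *Hes1*, -2.49 for *Notch3* and -2.71 for *Hey1*, below it. For *Nrarp*, added after its values were seen, the difference was 1.09 with *Eng* in the sum, with the lowest KO library at 0.00759 and the highest WT library at 0.00727. Without *Eng* it was 0.44 and the labels overlapped, as they did with CPM + 0.5. These ratios describe the libraries and do not say which cells the transcripts came from.

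**Figure D5:**
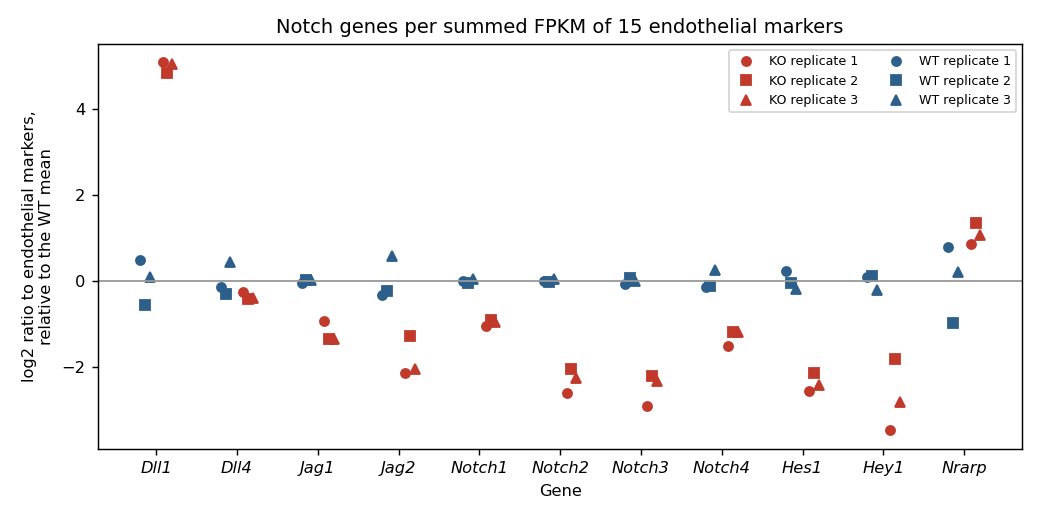
Log2 ratio of each gene to the summed FPKM of 15 endothelial markers, per library, relative to the mean of the WT libraries (line at 0), with KO libraries in red and WT libraries in blue. *Dll1* lies far above the line in the KO libraries, and 8 of the 10 genes lie below it, where a gene with no change in FPKM would lie at -2.10. The places of *Dll4*, near the line, and *Nrarp*, above it, depend on *Eng* in the sum, without which *Dll4* is lower in every KO library and *Nrarp* overlaps between the labels. Without *Eng* a gene with no change in FPKM would lie at -2.75.

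The genes whose profile over the 6 libraries was nearest to that of the 2 most changed genes were named by a fixed rule, the root mean square distance between centred log2(CPM + 0.5) values among 14074 other genes. For *Dll1* these were *Lyve1* (distance 0.168), *Ly6a* (0.240) and *Psg22* (0.254). *Lyve1*, a hyaluronan receptor known from lymphatic endothelium and some macrophages, had 1379, 1187 and 1424 counts in the KO-labelled libraries and 28, 15 and 19 in the WT-labelled ones. *Ly6a* and *Psg22* belong to families whose close copies could share reads. For *Dll4* the nearest were *Parvb* (0.0827), *Hist1h1e* (0.0840) and *Arsa* (0.117). *Hist1h1e* had 24, 15 and 26 counts against 2, 1 and 6, and its fitted log2 fold change was 2.87 against 1.69 for *Dll4*, so its distance depends on the 0.5 added to CPM. This likeness rests on 6 libraries in 2 groups.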

How the data were processed

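RNA of cardiac fibroblasts was enriched with oligo(dT) beads and sequenced as paired-end reads from libraries prepared with a strand-specific kit. HISAT2 was the aligner and mm10 the genome used by the authors, who deposited a raw count and an FPKM value per gene and library. FPKM is the count divided by gene length and library total. The counting tool, annotation release and strand setting are not given in the sources used here, and the processing notes also name edgeR and GRCm38.p4.

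The deposited counts went into a quasi-likelihood test of edgeR 4.0.16, run under R 4.3.3 (filterByExpr, TMM scaling, glmQLFit and glmQLFTest, Benjamini-Hochberg adjustment over the 14084 of 20854 genes with any count that passed the filter), with 3 libraries per label and no covariate. Standard errors were obtained from the log2 fold change and the F statistic. The biological coefficient of variation was 10.9%. A count of 0 allows up to 3 counts, or 0.249 CPM in the smallest library, and this floor covers counting error only. In pairs of libraries of the same label 22.4% to 31.8% of genes differed at an unadjusted p of 0.05, so no pair was a duplicate. FPKM values were used for levels and for ratios within a library. Shares and ratios between Notch genes were compared with exact two-sided permutation tests, and ratios to the endothelial markers are described.

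The 10 genes, the lists of pathway and marker genes, and the tests were chosen with earlier results of these data known. Named were all 10 genes, other pathway genes past the threshold with a log2 fold change of at least 0.5 in size or a count of 0 in every library, the 3 genes nearest to each of the 2 most changed genes, *Pecam1*, *Cdh5*, *Kdr*, *Pdgfrb*, *Col1a1* and *Kdm5b*. *Hes7*, *Hey2*, *Heyl*, *Rbpj*, *Cldn5*, *Eng*, *Tek*, *Nos3*, *Higd1b*, *Mcam*, *Abcc9*, the receptor ratios and the endothelial sum without *Eng* were added after their values were seen. Alternatives were DESeq2 1.42.0, dropping the filter or asking for a mean CPM of 1 or more, library size, upper quartile or marker scaling in place of TMM, limma 3.58.1 on log2 FPKM with 1 or 0.1 added, a block for the replicate number, a log2 fold change above 1 in addition, and each library left out in turn. The test was first tested on simulated data.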

Additional observations from a re-analysis of the deposited data

How the results depend on the processing

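Of the 150 values of the 10 genes under the alternatives, 145 kept their direction and side of the threshold or had no call to lose, 2 lost the call (*Notch3* with marker scaling and without WT replicate 2), 2 gained it (*Hes1*) and 1 reversed (*Notch2*, 0.13 with marker scaling). Marker scaling left 0 of the 10 genes lower and none of the pathway genes (0), with 36 pathway genes higher, and gave 8211 genes higher and 67 lower among all genes, with the median of all genes 0.37 higher. A log2 fold change above 1 in addition left 3 of the 10 genes higher and 0 lower, 7 pathway genes higher and 0 lower, and 844 of all genes higher and 38 lower. With each library left out in turn the lower genes numbered 1 to 3 of the 10 and 1131 to 1614 of all genes (1131 without KO replicate 3). The replicate numbers did not pair the libraries (correlations of deviations 0.01, 0.01 and 0.03), and with the replicate block 5 of the 10 genes were higher and 2 lower, as without it. Of 137 alternative values for the 18 ratios, 125 moved by less than the spread between replicates and 12 by more, 2 of them with CPM + 0.5 in place of FPKM (*Dll1* to *Dll4* 4.38, *Dll1* to the endothelial markers 3.86) and the other 10 without *Eng* in the endothelial sum, where *Dll1* stood at 4.34 and *Dll4* at -1.01. Counts of 4 to 21 in *Jag2*, *Hey1* and *Dll1* of the WT label limit their precision, and the 3 libraries per label limit every permutation test.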
